A study of Mus musculus with 4 samples.

Results

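The genes described here are those of transforming growth factor beta (TGF-beta) and bone morphogenetic protein (BMP) signalling, with the ID genes that BMP signals induce. They were chosen by name, as a list of ligands, receptors, SMAD proteins, modulators and ID genes, and all 47 listed names were found, each once, among the 54446 genes measured. The data are RNA-seq profiles of endothelial cells, which line blood vessels, isolated by cell sorting from retinas of C57BL/6 mice at postnatal day 16, with 100 cells per library. The control group has 2 libraries, and another 2 are labelled Zeb1-CKO, a conditional knockout by their titles and a Zeb1 knockdown by their genotype field. The Cre driver, the floxed allele, any alleles or agents the controls share with the knockouts, and whether animals were pooled are all unstated in the labels. Zeb1 encodes a zinc-finger transcription factor best known as a repressor of epithelial genes, and the comparison asks how these cells differ when it is targeted.

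TGF-beta family ligands bind a pair of type II and type I receptor kinases, which phosphorylate receptor SMADs. In the TGF-beta and activin branch these are SMAD2 and SMAD3, and in the BMP branch SMAD1, SMAD5 and SMAD9. Both kinds join SMAD4 and enter the nucleus, where BMP signals switch on the ID genes, whose products bind and inhibit basic helix-loop-helix transcription factors. Endothelial cells carry a receptor of their own in this family, ALK1 (gene Acvrl1), with the co-receptor endoglin (gene Eng); both are genes of hereditary haemorrhagic telangiectasia, a disorder of malformed vessels.

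Values are FPKM, fragments scaled to transcript length and library size, so that levels can be compared between genes. From the steps between the lowest values, library depth was roughly estimated at 20670000 and 11362000 fragments in control 1 and control 2 and at 22114000 and 16904000 in Zeb1-CKO 1 and 2, so low values are least precise in control 2. Zeb1 itself was at 10.7 and 11.1 FPKM in the control pair against 8.66 and 7.07 FPKM in the Zeb1-CKO pair, a difference that did not pass the test (limma's adjusted p = 0.235). The endothelial label was matched by its markers, with Cldn5, Cdh5 and Pecam1 high in all 4 libraries, and 9 endothelial markers summed to 3662 to 4530 FPKM. Most of that sum was Cldn5, at 2692 to 3500 FPKM. Markers of other cells were also present. The 10 pericyte and smooth-muscle markers summed to 2512 and 2025 FPKM in controls and to 1652 and 1806 FPKM in Zeb1-CKO libraries, with none at 0. Of these, Rgs5 was at 1201 to 1673 FPKM, above every listed endothelial marker but Cldn5. The sums for 9 microglial and myeloid markers were 21.3 and 61.7 FPKM in the control pair against 20.8 and 8.95 FPKM in the Zeb1-CKO pair, with Aif1 listed at 0 in Zeb1-CKO 1. For 6 photoreceptor markers they were 62.1 and 7.17 against 30.9 and 36.2 FPKM, with Arr3 listed at 0 in control 2, and for 7 Müller glia and astrocyte markers 280.3 and 311 against 293 and 328 FPKM, with Aqp4 listed at 0 in both controls. In RNA from a pool of cells, fewer cells of a type and less RNA per cell cannot be told apart.

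In cells sorted from Zeb1-CKO retinas, 1 gene of the pathway list, Inhbb, rose, and none fell. Of the 47 genes, 38 reached the mean of 1 FPKM needed for the test, and 37 of these did not pass limma's Benjamini-Hochberg adjusted p under 0.05. Over all 13651 genes tested, 2.23% were called higher and 0.901% lower, so 1 call among 38 genes, or 2.63%, is near the background share of 3.13% for either direction. Negative differences were found for 24 of the 38 genes, with a median of -0.11 on the log2(FPKM + 1) scale, beside a median of 0.02 and a share of 47.2% negative over all tested genes. For 21 genes, or 55.3%, the libraries of one genotype lay wholly above those of the other, beside 49.4% of all tested genes; 7 of the 21 were higher in Zeb1-CKO libraries (27.1% of all tested genes were) and 14 lower (22.3% of all). At an unadjusted p under 0.05 there were 2 higher genes, Inhbb and Fstl3 (10.5% of all tested genes were higher), and 6 lower genes, Ltbp4, Smad6, Tgfbr3, Id3, Smad4 and Ski (7.35% of all were lower). These 8 genes are 21.1% of those tested, beside 17.9% of all tested genes. With 2 libraries per genotype the test is coarse. The median 95% interval of the 38 genes reached 0.40 to either side on the log2(FPKM + 1) scale. For 30 of the 38 genes the whole interval lay within 1 of 0. This scale understates changes of low genes: Fstl3, 2.04-fold higher on average, had a difference of 0.58.

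**Figure D1:**
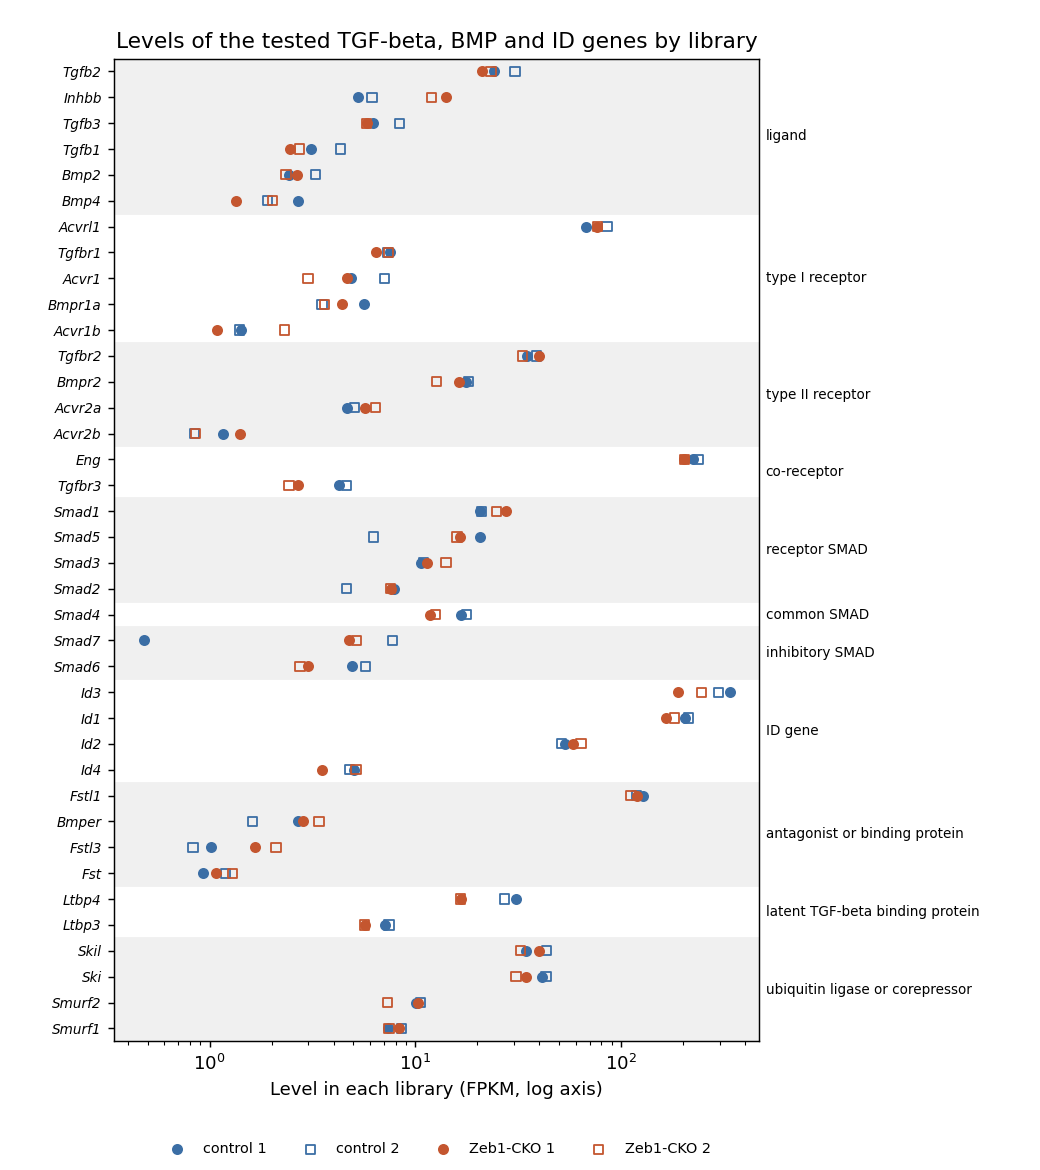
Level of each of the 38 tested genes in FPKM on a log axis, grouped by role; circles are replicate 1 and squares replicate 2, blue for control and orange for Zeb1-CKO. Inhbb stands higher in both Zeb1-CKO libraries, and Smad7 in control 1, at 0.479 FPKM, stands far from the other libraries.

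**Figure D2:**
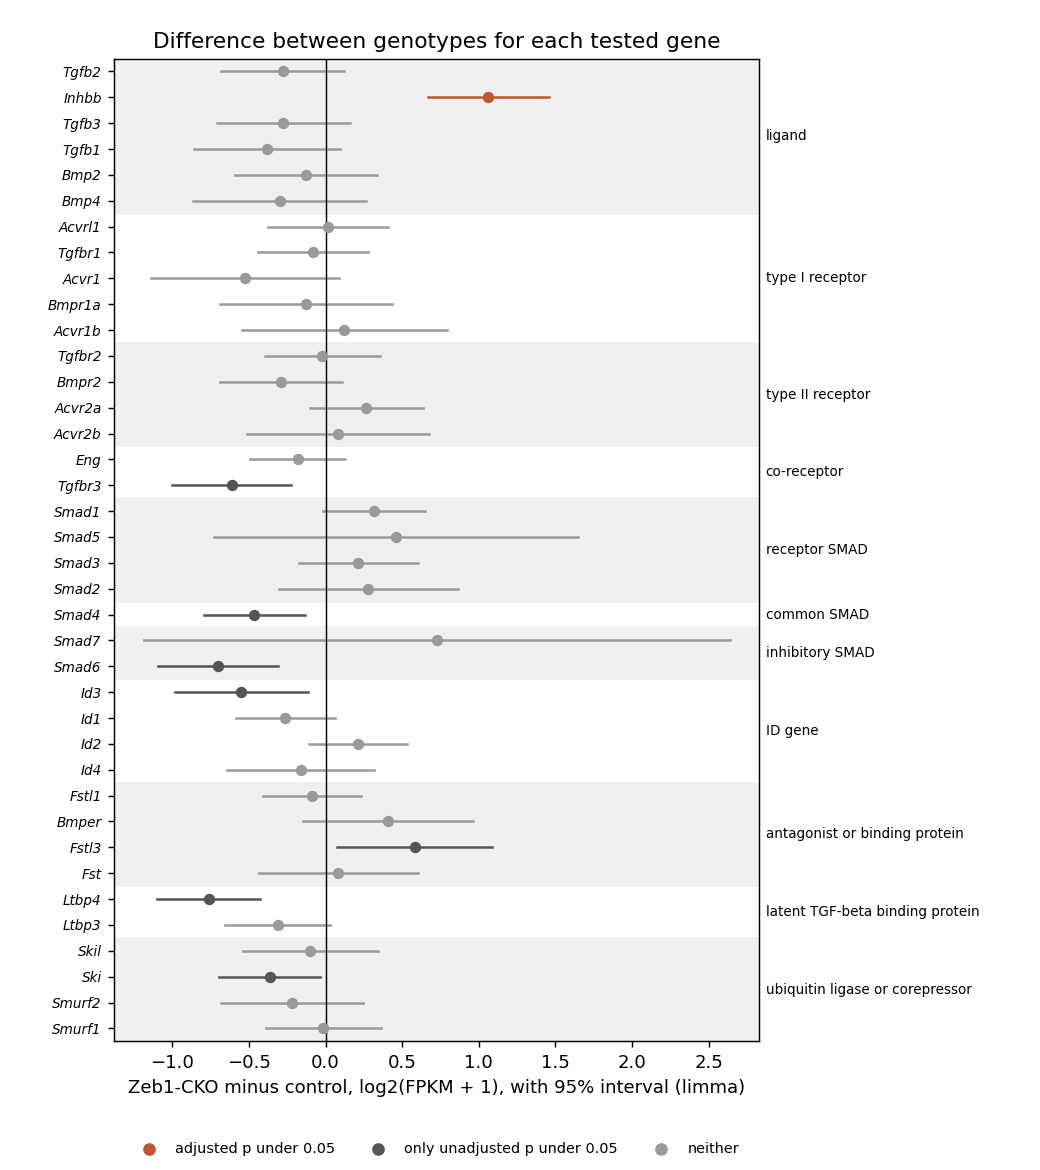
Difference between genotypes for the same 38 genes, as Zeb1-CKO minus control on the log2(FPKM + 1) scale with limma's 95% interval; orange marks an adjusted p under 0.05, dark grey only an unadjusted p under 0.05. The interval of Inhbb runs from 0.67 to 1.46, and those of 30 genes stay between -1 and 1.

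The sequences before the start sites of 4 genes are shown. Inhbb is the called gene, and Ltbp4 and Smad6 have the largest negative differences of the list. Id4 is the ID gene whose window holds none of its annotated exon bases. Each line gives the 250 bases before a RefSeq start (GRCm38.p6, the build of the files), 5′ to 3′ on the gene's strand. Capitals mark matches to CAGGTG, the E-box that ZEB1 is known to bind, to GGCGCC, a GC-rich element bound by BMP SMADs, or to CAGAC, the core of the SMAD-binding element, each on either strand.
Inhbb: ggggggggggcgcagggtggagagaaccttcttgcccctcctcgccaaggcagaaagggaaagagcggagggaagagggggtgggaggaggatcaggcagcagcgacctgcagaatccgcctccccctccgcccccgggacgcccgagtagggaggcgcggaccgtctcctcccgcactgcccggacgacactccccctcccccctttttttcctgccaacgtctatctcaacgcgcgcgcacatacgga
Ltbp4: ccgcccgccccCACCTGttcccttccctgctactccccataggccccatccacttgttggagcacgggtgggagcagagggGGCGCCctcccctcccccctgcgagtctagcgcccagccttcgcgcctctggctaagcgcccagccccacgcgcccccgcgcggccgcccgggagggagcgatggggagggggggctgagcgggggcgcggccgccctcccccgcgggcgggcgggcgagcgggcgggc
Smad6: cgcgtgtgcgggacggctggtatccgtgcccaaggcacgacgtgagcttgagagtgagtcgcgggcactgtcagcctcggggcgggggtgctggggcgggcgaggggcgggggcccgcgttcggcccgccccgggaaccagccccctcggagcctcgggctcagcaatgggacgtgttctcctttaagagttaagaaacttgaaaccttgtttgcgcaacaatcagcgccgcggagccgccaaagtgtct
Id4: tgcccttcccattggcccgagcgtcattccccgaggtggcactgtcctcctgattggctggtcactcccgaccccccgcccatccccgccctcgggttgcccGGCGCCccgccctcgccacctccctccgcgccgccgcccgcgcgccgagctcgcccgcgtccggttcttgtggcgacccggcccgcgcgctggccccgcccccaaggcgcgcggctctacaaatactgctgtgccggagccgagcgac
The Inhbb window lies at chr1:119422249-119422498 on the minus strand and holds no match to any of the 3 motifs. The Ltbp4 window, at chr7:27333664-27333913 on the minus strand, precedes an internal start within the gene and overlaps none of its annotated exons. It holds CACCTG, which is CAGGTG read on the other strand, from base 239 before the start, and GGCGCC from base 169. Other Ltbp4 windows overlap its exons and are not shown. Of these, chr7:27337613-27337862 spans the gene's annotated 5′ end and holds a CAGGTG match from base 182. The Smad6 window, at chr9:64022060-64022309 on the minus strand, holds none of the 3, and that of Id4, at chr13:48260866-48261115 on the plus strand, holds GGCGCC from base 148. Promoters were found for 35 of the 47 genes, as 43 windows. CAGGTG was present in at least 1 window of 7 of these genes (8 of 43 windows, beside 17.2% of 32817 windows of all genes), namely Bmp4, Bmp6, Bmpr1b, Fstl3, Ltbp2, Ltbp4 and Smad9. GGCGCC was in windows of 11 genes (12 of 43 windows, beside 9.59% of all windows) and CAGAC in windows of 17 genes (19 of 43, beside 42.2%). The 12 windows with GGCGCC count the same Ltbp4 site more than once, from base 169 of the window shown and from base 184 of an overlapping window. A match describes the letters of a window and does not show binding.

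Among the ligands, Inhbb was the gene that differed. It encodes the beta-B subunit that forms activin B and inhibin B, and it lies on chromosome 1 from 119415465 to 119422248 (mm10). Its level was 5.27 and 6.15 FPKM in the control pair against 14.1 and 11.95 FPKM in the Zeb1-CKO pair. Both Zeb1-CKO libraries stood above both controls, by more than the spread within either genotype. Inhbb rose 2.28-fold, the control mean being 5.71 ± 0.619 FPKM and the Zeb1-CKO mean 13.0 ± 1.52 FPKM (SD, n = 2 each), a log2 difference of 1.06 (SE 0.16; limma's adjusted p = 0.0315). The call ended without any 1 of the 4 libraries, at adjusted p between 0.0586 and 0.175, while the log2 difference stayed between 0.95 and 1.17. It also ended with a lower filter on the mean and with the replicate number as a block (adjusted p = 0.0882).

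The related activin subunit gene Inhba was near the limit of detection, at 0.106 and 0.207 FPKM in the control pair against 0.0648 and 0.0351 FPKM in the Zeb1-CKO pair, and was not tested. Of these activin subunit genes, Inhbb was the more abundant in every library. The most abundant ligand gene was Tgfb2, one of the 3 TGF-beta genes, at 24.1 and 30.4 FPKM in the control pair against 21.1 and 23.3 FPKM in the Zeb1-CKO pair. Tgfb3 was at 6.25 and 8.37 against 5.81 and 5.79 FPKM, and Tgfb1 at 3.11 and 4.32 against 2.45 and 2.73 FPKM. For each of the 3 both Zeb1-CKO libraries were below both controls, with the genotypes not overlapping, yet the differences of -0.28, -0.28 and -0.38 did not pass (limma's adjusted p = 0.438, 0.478 and 0.373). Tgfb2 was the highest of these genes in all 4 libraries, followed by Tgfb3 and then Tgfb1, whose values do not meet.

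BMP ligand genes were low. Bmp2, a ligand of the SMAD1 and SMAD5 branch, was at 2.44 and 3.26 FPKM in the control pair against 2.67 and 2.35 FPKM in the Zeb1-CKO pair, and the genotypes overlapped. Bmp4 was at 2.70 and 1.90 against 1.35 and 2.02 FPKM, also overlapping. Bmp6 and Bmp7 stayed under 0.5 FPKM in every library and were not tested, with Bmp7 listed at 0 in Zeb1-CKO 1. In control 2 the value of Bmp6, 0.0230 FPKM, corresponds to an estimated 0.937 fragments. Bmp6 shares 224 of its 3900 exon bases with Txndc5 on the opposite strand, which was at 17.3 to 26.4 FPKM, and no source used here states strand-specific counting, so reads of the genes cannot be told apart there.

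None of the type I receptor genes passed the test. Acvrl1, the gene of ALK1, was at 67.1 and 85.2 FPKM in the control pair against 76.4 and 76.8 FPKM in the Zeb1-CKO pair, the highest level of any type I receptor gene. Its Zeb1-CKO values lay between those of the controls, and the interval of the difference ran from -0.37 to 0.41 on the log2 scale (limma's adjusted p = 0.963). Tgfbr1, which encodes the TGF-beta type I receptor ALK5, was at 7.49 and 7.29 against 6.46 and 7.41 FPKM, with an interval from -0.44 to 0.28. In each library the FPKM of Acvrl1 was several times that of Tgfbr1.

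Acvr1, the gene of the BMP receptor ALK2, was at 4.84 and 7.06 FPKM in the control pair against 4.67 and 3.01 FPKM in the Zeb1-CKO pair. Both Zeb1-CKO values were below both controls, by a margin smaller than the spread within the genotypes (difference of -0.53, limma's adjusted p = 0.343). Bmpr1a, which encodes the BMP receptor ALK3, was at 5.60 and 3.51 against 4.38 and 3.63 FPKM, and Acvr1b, the gene of the activin receptor ALK4, at 1.42 and 1.403 against 1.08 and 2.32 FPKM; both overlapped. Bmpr1b did not reach the mean for testing, at 0.744 and 0.334 against 0.837 and 1.10 FPKM.

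No type II receptor gene passed either. Tgfbr2, the TGF-beta type II receptor gene, was the most abundant, at 34.8 and 38.9 FPKM in the control pair against 39.7 and 33.1 FPKM in the Zeb1-CKO pair, with an interval of the difference from -0.40 to 0.35. Bmpr2, the BMP type II receptor gene mutated in heritable pulmonary arterial hypertension, was at 17.6 and 18.01 against 16.2 and 12.7 FPKM. Its values were lower in both Zeb1-CKO libraries without passing (difference of -0.29, limma's adjusted p = 0.417). The activin receptor gene Acvr2a was at 4.66 and 5.07 against 5.71 and 6.41 FPKM, and Acvr2b was near 1 FPKM, from 0.847 to 1.41 over all 4 libraries. Acvr2a shares 446 of its 5686 exon bases with Orc4 on the opposite strand. Orc4 was at 4.26 to 5.50 FPKM, and reads of these genes cannot be told apart there. In order of level Tgfbr2, Bmpr2 and Acvr2a did not overlap one another in any library, and Acvr2b came last.

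The co-receptors were both lower in Zeb1-CKO libraries, neither past the test. Eng, the gene of endoglin, was among the most abundant genes of the list, at 223 and 236 FPKM in controls and 202 FPKM in each Zeb1-CKO library. The genotypes did not overlap, the means were 229.8 ± 8.99 and 202 ± 0.230 FPKM (SD, n = 2 per genotype), and the difference was -0.18 (limma's adjusted p = 0.514). Tgfbr3, which encodes betaglycan, a co-receptor that presents TGF-beta2 and also binds inhibin, was at 4.26 and 4.64 against 2.69 and 2.43 FPKM. That is 1.74-fold lower in Zeb1-CKO cells with no overlap, a difference of -0.61 (SE 0.16; limma's adjusted p = 0.117). Under every other processing setting tried its difference stayed negative, from -0.77 to -0.56, and never passed.

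Receptor SMAD genes had positive differences in all 4 tested cases and none passed. Smad1, of the BMP branch, was at 20.5 and 20.96 FPKM in the control pair against 27.6 and 24.6 FPKM in the Zeb1-CKO pair, without overlap (difference of 0.32, limma's adjusted p = 0.299). Smad3, of the TGF-beta and activin branch, was at 10.6 and 10.9 against 11.3 and 14.1 FPKM, also without overlap (difference of 0.21, adjusted p = 0.544). Smad2 was at 7.86 and 4.64 against 7.62 and 7.55 FPKM, and its low value came from control 2. Smad5 showed the same split more strongly, at 20.5 and 6.27 FPKM in controls against 16.5 and 15.9 FPKM. Without control 1 the Smad5 difference was 1.24 with an adjusted p of 0.0376, and without control 2 it was -0.32, so its direction rests on which control is used. Smad9 was at 0.898 and 0.316 against 0.262 and 0.461 FPKM and was not tested.

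The shared partner Smad4, which both branches need, was lower in Zeb1-CKO cells by a difference that missed the threshold. It was at 16.6 and 17.7 FPKM in the control pair against 11.8 and 12.5 FPKM in the Zeb1-CKO pair. The genotypes did not overlap, with means of 17.1 ± 0.778 and 12.1 ± 0.518 FPKM (SD, n = 2 per genotype), a difference of -0.46 (SE 0.13; limma's adjusted p = 0.153).

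Inhibitory SMADs are induced by the signal they restrain. Smad6, which acts mainly on the BMP branch, was at 4.92 and 5.70 FPKM in the control pair against 3.01 and 2.75 FPKM in the Zeb1-CKO pair. It was 1.84-fold lower, with no overlap and a difference of -0.70 (SE 0.16; limma's adjusted p = 0.0892), and stayed between -0.86 and -0.61 over the other processing settings tried without passing in any. Smad7, which acts on both branches, could not be placed. It was at 0.479 FPKM in control 1 and 7.73 FPKM in control 2, with both Zeb1-CKO libraries between them at 4.74 and 5.16 FPKM. Values per gene do not show how fragments were assigned to transcripts, for Smad7 or for Smad5, and the part of this in the splits between their controls was not tested. Without control 2 the Smad7 difference was 2.01 with an adjusted p of 0.0153, and without control 1 it was -0.55, which again turns the direction. The controls also stood apart in the photoreceptor sum, at 62.1 and 7.17 FPKM, and in the microglial and myeloid sum, at 21.3 and 61.7 FPKM. The part of either in these values was not tested.

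ID genes were the most abundant group of the list, with summed levels of 598 and 562 FPKM in the control pair against 415 and 495 FPKM in the Zeb1-CKO pair. None of the 4 passed, and they did not share a direction. Id3 (chromosome 4, 136143497 to 136145755) was the most abundant gene of the whole list on average, at 336 and 295 FPKM in the control pair against 189 and 244 FPKM in the Zeb1-CKO pair. Both Zeb1-CKO values were below both controls, 1.46-fold on average (difference of -0.55, SE 0.17, limma's adjusted p = 0.185). Id1 (chromosome 2, 152736251 to 152737410), the classic BMP target, was at 204 and 211 against 165 and 181 FPKM. It too was lower without overlap, by -0.26 (SE 0.13; adjusted p = 0.367). Id2 went the other way, at 53.2 and 51.4 against 58.1 and 63.6 FPKM, with a difference of 0.21 and an adjusted p of 0.457. Id4 was low, at 5.05 and 4.77 against 3.53 and 5.14 FPKM, and overlapped.

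Extracellular antagonists and binding proteins were mostly low, apart from Fstl1. This secreted follistatin-like glycoprotein gene was at 128 and 118 FPKM in the control pair against 119 and 111 FPKM in the Zeb1-CKO pair, with overlap and an interval of the difference from -0.41 to 0.23. Fstl3, whose product binds and neutralises activins, was at 1.012 and 0.832 against 1.66 and 2.101 FPKM. The libraries did not overlap, and the mean was 2.04-fold higher in Zeb1-CKO cells without passing (difference of 0.58, SE 0.20, limma's adjusted p = 0.223). Fstl3 shares 1157 of its 2445 exon bases with Prss57 on the opposite strand, which was itself at most at 0.216 FPKM in any library. Fst, the gene of follistatin, also an activin antagonist, was at 0.929 and 1.20 against 1.07 and 1.29 FPKM and overlapped. Bmper, which encodes a secreted modulator of BMPs, was at 2.69 and 1.61 against 2.86 and 3.40 FPKM (difference of 0.41, adjusted p = 0.415). The BMP antagonist genes Nog and Grem1 were close to 0: Nog was at 0.0286 and 0.106 FPKM in controls, was listed at 0 in Zeb1-CKO 1 and was at 0.0351 FPKM in Zeb1-CKO 2. Grem1 was at 0.0370 and 0.0426 FPKM in controls and listed at 0 in both Zeb1-CKO libraries, where the control values amount to an estimated 3.17 and 2.01 fragments.

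Latent TGF-beta binding proteins anchor the inactive TGF-beta complex in the matrix. Ltbp4 (chromosome 7, 27305136 to 27337692) was at 30.7 and 27.0 FPKM in the control pair against 16.6 and 16.5 FPKM in the Zeb1-CKO pair. The genotypes were far apart compared with the spread within them, with means of 28.9 ± 2.59 and 16.6 ± 0.115 FPKM (SD, n = 2 per genotype), 1.74-fold lower in Zeb1-CKO cells. Its difference of -0.76 (SE 0.14) lay just outside the threshold at limma's adjusted p of 0.0519, and it passed in 4 of 15 other processing settings, those with a mean of at least 5 FPKM, quantile normalization, median centring or robust moderation. Ltbp3 was at 7.14 and 7.43 against 5.67 FPKM in each Zeb1-CKO library, also without overlap (difference of -0.31, adjusted p = 0.316). Ltbp1 and Ltbp2 stayed under 1 FPKM in every library and were not tested. Ltbp4 thus supplied most of the summed level of this group, which was 38.4 and 35.4 FPKM in controls and 23.1 FPKM in each Zeb1-CKO library. Pericyte and smooth-muscle markers were lower beside it, in 10 of 10 members and with sums of 2512 and 2025 against 1652 and 1806 FPKM; their part in the result was not tested.

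None of the 4 genes of intracellular brakes on the pathway passed. Ski, a corepressor that binds SMADs, was at 41.1 and 43.1 FPKM in the control pair against 34.2 and 30.7 FPKM in the Zeb1-CKO pair, without overlap (difference of -0.37, SE 0.13, limma's adjusted p = 0.237). Its relative Skil, which encodes SnoN, was at 34.5 and 43.2 against 39.9 and 32.5 FPKM, with overlap. The ubiquitin ligase genes Smurf1 and Smurf2, whose products mark receptors and SMADs for degradation, were at 7.38 and 8.58 against 8.34 and 7.44 FPKM and at 10.1 and 10.6 against 10.3 and 7.34 FPKM. Both overlapped, with intervals from -0.39 to 0.36 and from -0.68 to 0.24.

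A further 67 genes of the same pathways were examined as a list, of which 48 reached the mean for testing. Of these, 2 fell, none rose and 46 did not pass, so 4.17% were called, beside 3.13% of all tested genes (0.901% called lower). The median difference was -0.14, beside 0.02 over all tested genes, and 29 differences, or 60.4%, were negative, beside 47.2% of all. Htra1, which encodes a secreted serine protease that acts on TGF-beta family signalling and is mutated in a hereditary disease of small cerebral vessels, was at 55.4 and 51.6 FPKM in the control pair against 20.96 and 16.2 FPKM in the Zeb1-CKO pair. It fell 2.88-fold with no overlap, a log2 difference of -1.49 (SE 0.17; limma's adjusted p = 0.0149). Bgn, the gene of biglycan, a matrix proteoglycan that binds TGF-beta, was at 107 and 97.9 against 58.1 and 57.2 FPKM. It fell 1.78-fold, a difference of -0.82 (SE 0.13; adjusted p = 0.0359). The call of Htra1 ended without Zeb1-CKO 1 (adjusted p = 0.0508) or Zeb1-CKO 2 (0.0767) and with no filter (0.0898), and that of Bgn without any 1 library (0.0824 to 0.168) and under the replicate block (0.112). The Bgn call also ended with a mean of at least 0.1 FPKM (0.0542), with no filter (0.154) and without limma's trend (0.0625).

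Other genes of that list with an unadjusted p under 0.05 were mostly lower, 10 lower including Htra1 and Bgn (7.35% of all tested genes were) against 2 higher (10.5% of all). Together they are 25.0% of the 48 genes, beside 17.9% of all tested genes. The higher ones were Hey1, a transcriptional repressor gene shared by the Notch and BMP pathways, at 19.4 and 17.99 FPKM in the control pair against 49.1 and 34.2 FPKM in the Zeb1-CKO pair (difference of 1.09, limma's adjusted p = 0.0530), and Cd109, a co-receptor gene that restrains TGF-beta signalling. Cd109 was at 18.8 and 16.0 FPKM in the control pair against 28.1 and 25.95 FPKM in the Zeb1-CKO pair (0.61, adjusted p = 0.101). Thbs1, whose product thrombospondin-1 can activate latent TGF-beta, was at 39.7 and 52.4 against 28.2 and 29.8 FPKM (-0.64, adjusted p = 0.132). Emilin1, which encodes a matrix protein that limits TGF-beta processing, was at 8.60 and 10.04 against 6.26 and 5.55 FPKM (-0.58, adjusted p = 0.129). The TGF-beta target gene Tsc22d1 was at 142 and 133 against 93.9 and 96.7 FPKM (-0.52, adjusted p = 0.101). For each of these 5 genes the genotypes did not overlap, as for 49.4% of all tested genes, and the difference did not pass. They were named for an unadjusted p under 0.05, which favours genes whose libraries do not overlap. Of 11 target genes in the list, 6 had negative and 5 positive differences, and none passed. At limma's unadjusted p under 0.05, 5 of the 11 were lower and 1 higher, beside 7.35% and 10.5% of all tested genes. The blood-borne ligands of ALK1, Gdf2 and Bmp10, were at or below 0.152 FPKM in every library and were not tested.

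**Figure D3:**
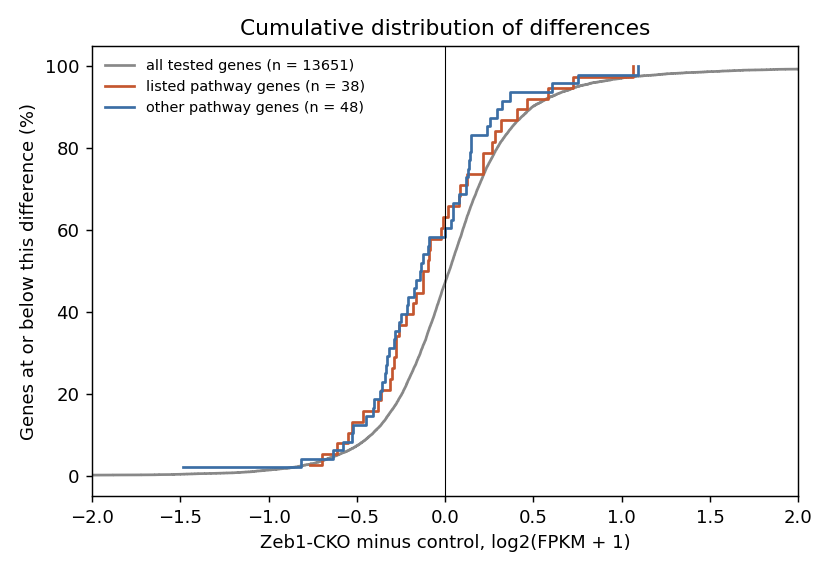
Share of genes, in percent, at or below each difference between genotypes on the log2(FPKM + 1) scale, for all 13651 tested genes, the 38 tested genes of the list and the 48 tested other pathway genes; the axis stops at 2 to either side, and 0.820% of all tested genes lie beyond it. Both pathway curves lie left of the curve for all genes around 0, with medians of -0.11 and -0.14 against 0.02.

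The markers of mural cells, the pericytes and smooth muscle that wrap vessels, were lower alongside the lower pathway genes. All 10 pericyte and smooth-muscle markers were lower in Zeb1-CKO libraries without overlap, beside 22.3% of all tested genes, with a median difference of -0.37. Of the 10, Tagln fell (-0.85, limma's adjusted p = 0.0429), and 0.901% of all tested genes were called lower. Acta2, smooth-muscle actin, was at 126 and 92.7 FPKM in the control pair against 46.8 and 65.7 FPKM in the Zeb1-CKO pair, and the pericyte receptor gene Notch3 was at 19.6 FPKM in each control and 12.2 and 12.3 FPKM in Zeb1-CKO libraries. The ratio of means was 1.94 for Acta2 and 1.61 for Notch3, beside 1.74 for Ltbp4, 1.84 for Smad6, 1.74 for Tgfbr3, 1.78 for Bgn and 2.88 for Htra1. Among the other markers the ratio was 1.91 for Tagln and 1.67 for Myl9. The rest differed less, with ratios of 1.19 for Pdgfrb, 1.23 for Rgs5 and 1.27 for Abcc9. For Kcnj8, Cspg4 and Myh11 the ratios were 1.31, 1.31 and 1.33. Microglial and myeloid markers were lower in 6 of 6 tested members, 3 of them without overlap, with a median of -1.22, and none passed. Of the untested ones, Aif1 and Ptprc were lower on average. P2ry12 was higher without overlap, at 0.615 and 0.441 FPKM in the control pair against 0.861 and 0.993 FPKM in the Zeb1-CKO pair. Müller glia and astrocyte markers had a median of 0.25, with 4 of 6 tested members positive. The 9 endothelial markers had a median of 0.10, with 5 positive, 4 negative and none called. Their genotypes did not overlap for 3 of the higher and 2 of the lower markers, beside 27.1% and 22.3% of all tested genes. Markers of other retinal neurons had a median of 0.06, with 4 of 5 tested members positive and none called. Whether any of these cell types has a part in the pathway values was not tested. Inhbb stood higher while the mural markers stood lower.

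**Figure D4:**
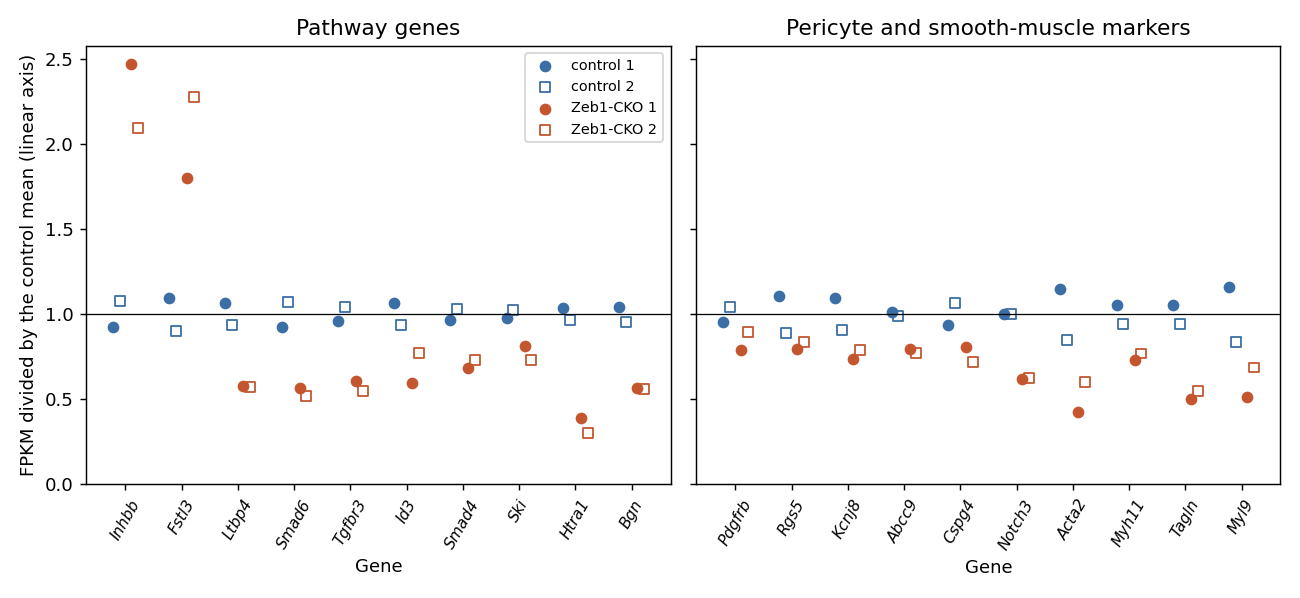
FPKM in each library divided by the mean of the 2 controls, on a linear axis, for 10 pathway genes (left) and 10 pericyte and smooth-muscle markers (right); circles are replicate 1, squares replicate 2, blue control and orange Zeb1-CKO. All 10 markers lie below the controls in both Zeb1-CKO libraries, as do the pathway genes from Ltbp4 to Bgn, while Inhbb and Fstl3 lie above.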

How the data were processed

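The authors deposited one table of FPKM per gene for 4 libraries. Per the labels' protocols, cDNA was amplified with a SMART-Seq v4 kit and made into libraries with a NuGEN kit; neither label nor header describes strand-specific counting, and these kits are not known to mark strand. Per the submitters' processing notes, reads were handled with Trimmomatic 0.36, HISAT2 2.1.0 and StringTie 1.3.3 on mm10; the sources used here give neither settings nor an annotation release. The header names no unit, so FPKM was read from the values and tools.

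Genes averaging 1 FPKM or more across the 4 libraries were tested together by limma-trend (limma 3.58.1, R 4.3.3) on log2(FPKM + 1), which understates changes of low genes; the adjusted p (Benjamini-Hochberg, threshold 0.05) covers all 13651. FPKM are not counts, so no count test was run. Nothing states that replicates were separate animals, so each p-value reflects no more than sample-to-sample spread, possibly technical. In a simulation of 13651 genes with independent normal noise, 100 genes were changed by 1 on the log2 scale, 100 by 2 and the rest not at all. The test called 32% of the first 100 and 81% of the second, with 6 false calls among 119. These shares depend on how many genes change, so they need not hold for the measured libraries. Depth is an estimate from steps in FPKM times length, in genes with 1 annotated transcript, taking a step as 1 fragment. It is rough: 12.05% to 16.01% of low values lay within 0.02 of a whole step, beside 4% if evenly spread. Also, amplified reads without molecular identifiers overstate the number of molecules.

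Gene spans and overlaps are from GENCODE M21 (53229 identifiers matched, all with the same start), promoters from the RefSeq table for GRCm38.p6. BLAST 2.17.0 found, for the listed genes, no near-identical copy in another gene (identity of 95% or more covering 80% or more of a transcript and 200 bases or more). Values in every library are given by a rule: genes past the threshold or at an unadjusted p under 0.05, the most abundant of each role, ID genes and endothelial receptors. One gene that the rule names is not reported here. Others were added after their values were seen, as were the promoters of Ltbp4 and Smad6. The genes and lists were chosen with earlier results of these data known. Alternatives were other pseudocounts, filters, scalings, variance models, a replicate block and leaving out each library; those that need counts were left out, as the values are FPKM. Plots were made in matplotlib 3.10.9.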

Additional observations from a re-analysis of the deposited data

How the results depend on the processing

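With 2 libraries per genotype, calls depended on the settings. Filters, variance models and the replicate block leave each gene's difference unchanged by construction, so they cannot show how stable the differences are. The count of listed genes called higher was 1 as reported and 0 with a mean of at least 0.1 FPKM, with no filter and with the replicate block. Leaving out 1 library in turn gave counts of 0 to 1, the 1 being Smad5 without control 1 and Smad7 without control 2, never Inhbb. The count called lower was 0, and 1 (Ltbp4) with a mean of at least 5 FPKM, quantile normalization, median centring or robust moderation. The 427 calls over all genes became 85 with no filter, 257 with a mean of at least 5 FPKM, 193 with the replicate block, and 66 to 281 without 1 library. The median difference of the tested genes of the list, -0.11, ranged from -0.14 to -0.050 without 1 library; a filter that admits or drops genes changes what is tested, and otherwise the cause was not tested. Same-numbered libraries deviated from their genotype means with a correlation of -0.118 across genes. With 2 libraries per genotype, crossing the numbers only turns this to 0.118, so it cannot show whether the numbers pair samples. With the numbers crossed, an alternative chosen after seeing the data, 455 genes were called, 1 of them in the list.

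Of 556 values of single listed genes under the 15 other processing settings, 521 kept direction and side of the threshold, and 23 of 38 genes kept their sign throughout. These counts say little about stability, as 37 of the 38 genes were not called to begin with. The sign could turn only under other pseudocounts, other scalings or without 1 library, since the remaining settings leave a gene's difference unchanged. The sign turned only for small or discordant differences. It was 0.00948 for Tgfbr2 and 0.0150 for Smurf1 when libraries were scaled to the same sum and -0.026 for Acvrl1 with median centring. Without 1 library the range was -0.15 to 0.19 for Acvrl1, -0.40 to 0.15 for Bmpr1a, -0.55 to 2.01 for Smad7, -0.011 to 0.18 for Fst, -0.28 to 0.026 for Bmp2, -0.15 to 0.11 for Tgfbr2, -0.11 to 0.27 for Acvr2b, -0.046 to 0.61 for Smad2, -0.32 to 1.24 for Smad5, -0.11 to 0.083 for Smurf1, -0.26 to 0.060 for Skil, -0.17 to 0.0036 for Tgfbr1, -0.38 to 0.056 for Id4, -0.21 to 0.46 for Acvr1b and -0.44 to 0.00088 for Smurf2. The cause was not tested. Depth limits the genes under 1 FPKM, where a value can rest on a few fragments.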
